A study of Mus musculus with 4 samples.

Results

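The 5 muscarinic acetylcholine receptor genes, Chrm1 to Chrm5, were followed by name through 4 single-nucleus libraries of mouse hippocampus, where each was 1 of 20211 genes listed in every library, and all 5 were found in all 4. Each library stood for a single genotype by its label. The labels name a wild type and 3 knockouts of MAGL (monoacylglycerol lipase, gene Mgll): 1 total or global, 1 specific to astrocytes and 1 specific to neurons. They are called here the wild type library and the total-labelled, the astrocyte-labelled and the neuron-labelled library. The labels give no Cre driver, strain, sex, age or number of animals, and nothing else is named as shared by the groups, which all hold nuclear RNA from nuclei freed with detergent and cleaned on iodixanol. With 1 library per genotype no test across genotypes could be made, and even 4 paired libraries could not give a two-sided exact p under 0.125. Values are UMIs (unique molecular identifiers, 1 for each captured RNA molecule) as CPM, which scales the UMIs of a gene by the total UMIs of the same nuclei, and every interval is an exact 95% interval that covers counting error only. Where no nucleus held a UMI, the upper bound given is 3 divided by the number of nuclei and not an exact limit. Means ± SD run over the 4 libraries, so their spread holds genotype and library together.

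Muscarinic receptors are G protein-coupled receptors for acetylcholine, which the hippocampus receives mainly from cholinergic neurons of the medial septum. M1, M3 and M5 (Chrm1, Chrm3, Chrm5) couple to Gq and phospholipase C beta, which splits a membrane lipid into IP3, a releaser of calcium, and diacylglycerol. Diacylglycerol lipase turns diacylglycerol into the endocannabinoid 2-AG, and MAGL breaks 2-AG down, so the Gq-coupled receptors stand upstream of the lipid whose breakdown the knockouts concern. The same route closes the Kcnq potassium channels of the M-current, which is named after these receptors. M2 and M4 (Chrm2, Chrm4) couple to Gi/o, which lowers cAMP and opens GIRK potassium channels, and M2 is a known brake on transmitter release from axon terminals.

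The libraries held 9369, 31243, 10731 and 8945 barcodes in the order given above, with median depths of 8904, 5456, 7448 and 8446 UMIs. After filters and removal of called doublets (3.96%, 23.3%, 5.99% and 2.14% of barcodes), 51314 nuclei remained, and between 574 and 1252 barcode sequences per library also occurred in another library. Clustering without the 5 receptor genes gave 44 clusters, of which 27 met the naming rule, in 21 classes. A class name means resemblance to that cell type by its markers. Some clusters with enough markers stayed unnamed by other parts of the rule. Among them was cluster 14 (1252 nuclei), with 8 of 13 CA2/CA3 markers, which the CA2/CA3 class below leaves out. Between 20.2% and 26.5% of nuclei per library stayed unnamed. The libraries also differ in ways the labels do not state. Female nuclei made up 47.1%, 43.1% and 41.0% of the wild type, astrocyte-labelled and neuron-labelled libraries and 0.0126% of the total-labelled library. Medium spiny-like nuclei, a type of the striatum, numbered 32, 749, 0 and 1, and thalamus-like nuclei numbered 1, 145, 21 and 0. Mgll stood at 107, 86.1, 108 and 109 CPM over all nuclei and at 376, 280, 222 and 454 CPM in astrocyte-like nuclei (110, 111, 32 and 53 nuclei). It stood at 120, 103, 140 and 130 CPM in dentate granule-like nuclei and at 63.4, 45.8, 71.4 and 70.4 CPM in CA1-like nuclei. No source used here gives the deleted exon, so these levels do not check the labels. Genotype, dissection and library cannot be told apart in these data, and ratios were also taken in male nuclei alone.

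The genes differ widely in size, and nuclear RNA holds unspliced transcripts, so levels of different genes are compared below only per length. In the GENCODE M21 models on GRCm38, Chrm1 (ENSMUSG00000032773.9) lies on the plus strand at chr19:8663789-8683587 and spans 19.8 kb. Chrm2 (ENSMUSG00000045613.9) lies on the plus strand at chr6:36388084-36528414 and spans 140.3 kb, and Chrm3 (ENSMUSG00000046159.16) lies on the minus strand at chr13:9875486-10360847 and spans 485.4 kb. Chrm4 (ENSMUSG00000040495.4) at chr2:91927249-91928688 on the plus strand and Chrm5 (ENSMUSG00000074939.3) at chr2:112479171-112480769 on the minus strand are each modelled as a single exon, of 1440 and 1599 bases, with hardly a base beyond their coding sequences of 1437 and 1596 bases. RefSeq gives the same 2 genes spans of 7.65 and 57.6 kb with further exons. No source used here gives the annotation or the strand rule of the counting, and the part of the gene models in the low counts of Chrm4 and Chrm5 was not tested.

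The 250 bases before the RefSeq start of Chrm2 and of Chrm3 (GRCm38.p6) are printed here because these are the receptors whose levels differ most between classes, and because each window also lies under a gene on the other strand. They read 5′ to 3′ on the strand of the receptor gene, at chr6:36387834-36388083 for Chrm2 (plus) and chr13:10360804-10361053 for Chrm3 (minus), with capitals marking a GC box (GGGCGG on either strand).
Chrm2: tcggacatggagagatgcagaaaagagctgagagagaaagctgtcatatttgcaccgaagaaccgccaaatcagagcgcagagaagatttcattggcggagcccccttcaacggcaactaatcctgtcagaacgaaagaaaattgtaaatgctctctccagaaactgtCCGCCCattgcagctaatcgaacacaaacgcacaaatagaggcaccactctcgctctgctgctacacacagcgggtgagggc
Chrm3: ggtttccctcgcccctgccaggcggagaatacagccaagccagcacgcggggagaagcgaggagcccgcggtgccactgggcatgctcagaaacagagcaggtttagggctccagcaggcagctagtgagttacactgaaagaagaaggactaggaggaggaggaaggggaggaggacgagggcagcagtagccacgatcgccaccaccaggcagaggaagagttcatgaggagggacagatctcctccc
The Chrm2 window holds 12 CpG and 1 GC box at 50% GC, and the Chrm3 window holds 10 CpG and no GC box at 61.2% GC. The windows of Chrm4 (70% GC, 26 CpG, 3 GC boxes, chr2:91921939-91922188) and Chrm5 (37.6% GC, 2 CpG, no GC box, chr2:112480818-112481067) sit at the far ends of the same measures. A GC box occurred in 10756 of 32851 RefSeq windows of this length (32.7%), and its absence says only that these letters are not in the window. Chrm1 was not matched in the promoter table.

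Genes that overlap a receptor gene matter here because reads on the wrong strand could be counted for either. The window and first bases of Chrm2 lie under 9330158H04Rik, a non-coding gene on the minus strand at chr6:36209620-36390191 that shares 2108 bases with the Chrm2 span. Its level was highest in the Cck class at 71.3 CPM, the class in which Chrm2 was also highest, and over the 21 classes the log2 levels of the pair had r = 0.75. Chrm3 has the antisense Gm26861 over its start (r = 0.79, 6.93 CPM in CA1) and Gm47405 inside it on the same strand (r = 0.87, 16.4 CPM in CA1). These levels were below those of the receptors in the same classes. How reads in the shared bases were assigned was not tested, and these overlapping genes were not left out of the clustering described above. The receptors themselves share little exact sequence. The longest run common to any 2 of the 5 coding sequences is 29 bases, shared by Chrm1 (chr19:8679043-8679071) and Chrm4 (chr2:91928464-91928492), and the other 9 pairs share runs of 17 to 23 bases.
Chrm1 and Chrm4: ctgctggccttcatcctcacctggacacc

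Over all nuclei kept, Chrm3 gave by far the most UMIs, Chrm1 and Chrm2 a middle number, and Chrm4 and Chrm5 almost none. Chrm3 stood at 769 CPM (286220 UMIs, in 27887 of 51314 nuclei), Chrm2 at 71.6 CPM (26642 UMIs, 8075 nuclei) and Chrm1 at 60.1 CPM (22370 UMIs, 15950 nuclei). Chrm4 had 114 UMIs in 113 nuclei and Chrm5 had 101 UMIs in 100 nuclei, or 0.306 and 0.271 CPM. The order between genes depended on the length used. Per kilobase of gene span, Chrm1 led with a level of 3.04 CPM against 1.58 for Chrm3, 0.510 for Chrm2, 0.213 for Chrm4 and 0.170 for Chrm5. Per kilobase of exon, Chrm3 led with 123 CPM against 11.8 for Chrm2 and 9.27 for Chrm1. Levels of different genes are therefore not ranked further, and the rest compares each gene with itself.

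Chrm1, the M1 receptor and the best known Gq-coupled muscarinic receptor of forebrain principal neurons, had its highest means in CA1 and dentate granule-like nuclei. In CA1 pyramidal-like nuclei it stood at 85.8, 98.4, 81.9 and 96.1 CPM in the wild type library and the 3 knockout libraries, in the order given above (90.5 ± 7.9). In dentate granule-like nuclei it stood at 85.3, 99.2, 89.1 and 88.0 CPM (90.4 ± 6.1). The total-labelled library was the highest in both classes, and the ranges of CA1 and dentate gyrus overlapped almost fully, with a ratio of means of 1.00. CA2/CA3-like nuclei were lower, at 60.2, 68.1, 53.7 and 68.4 CPM (62.6 ± 7.1), and 1.45-fold below CA1. Their range overlapped neither that of CA1, where 39.6% of genes with at least 100 UMIs showed the same lack of overlap, nor that of the dentate gyrus, where 52.9% did.

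Chrm1 means were 67.6 CPM in the upper cortical class, above CA2/CA3 but with overlapping ranges, 57.4 in the subicular class (45.4, 62.3, 61.0 and 60.8 by library, lowest in the wild type) and 54.2 in the deep cortical class. Medium spiny-like nuclei stood at 59.2 CPM over the 2 libraries that held at least 20 of them. Near-projecting or layer 6b-like nuclei were the lowest of the excitatory classes measured in all 4 libraries, at 28.8 CPM. The name of this class is weak. It rests on Ly6g6e, Nxph3, Hmga2 and Tshz2, while Cplx3, Nxph4, Moxd1 and Ccn2 were in 0.296%, 0.370%, 0.370% and 4.29% of its nuclei. Only 9.69% of its nuclei received the same name when each was assigned by its own markers. The upper cortical name, on 4 of 8 markers, is also weak. By their own markers 35.3% of its nuclei received the same name and 51.0% none. For the subicular class these shares were 32.7% and 33.6%. The inhibitory classes stood at 36.03 CPM in the Lamp5 class, 25.9 in the Cck class, 21.1 in the Pvalb class, 19.9 in the Vip class and 16.6 in the Sst class. The excitatory lineage pooled the named hippocampal and cortex-like classes and the inhibitory lineage these inhibitory classes, without the unnamed clusters. Pooled by lineage, excitatory nuclei held 70.9, 81.4, 71.7 and 77.6 CPM (75.4 ± 5.0) and inhibitory nuclei 20.9, 25.8, 24.1 and 21.3 CPM (23.0 ± 2.3). The lowest excitatory value was well above the highest inhibitory value and the means differed 3.28-fold, in a comparison where 55.8% of genes had ranges that did not overlap. Among the 15 classes measured in all 4 libraries, 13 of 14 neighbours in the order of Chrm1 levels overlapped; the exception was the step from dentate granule to upper cortical nuclei (49.6% of genes did not overlap there).

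A UMI of Chrm1 was found in 58.9%, 46.3%, 48.2% and 58.9% of CA1-like nuclei and in 46.8%, 35.2%, 41.4% and 45.1% of dentate granule-like nuclei. These shares follow the depth of the libraries, whose CA1 medians were 11253, 6586, 8005 and 9809 UMIs. Thinned to 2000 UMIs per nucleus, the shares were 15.4%, 18.5%, 14.9% and 18.4% in CA1 and 16.2%, 17.5%, 16.1% and 16.3% in the dentate gyrus, a narrow band in which the total-labelled library was no longer low. Thinning leaves out nuclei with under 2000 UMIs. Oligodendrocyte-like nuclei serve as a low-level comparison; how much of their Chrm1 is stray RNA and how much their own was not tested. Unthinned they had Chrm1 in 1.37%, 0.0727%, 11.6% and 3.70% of nuclei at median depths of 2044, 1209, 1633 and 1741 UMIs. Thinned, 1 of 194 had it in the wild type library (0.515%) and 0 of 200 in the total-labelled one, which allows up to 1.5% (3 of 200).

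Chrm3, the M3 receptor and the other Gq-coupled member with enough UMIs to compare, showed the widest contrast between hippocampal fields. It stood at 1398, 1496, 1466 and 1590 CPM in CA1-like nuclei (1487 ± 80) and at 1147, 1215, 1329 and 1234 CPM in CA2/CA3-like nuclei (1231 ± 75), but at only 30.0, 30.7, 35.1 and 38.6 CPM in dentate granule-like nuclei (33.6 ± 4.0). Every CA1 library was above every CA2/CA3 library, by 1.21-fold between means, but 39.6% of genes did not overlap in this pair and 46.8% had as large a ratio of means. Both fields were far above the dentate gyrus. CA1 was 44.3-fold over the dentate gyrus, a difference of 5.47 on the log2 scale. With doublets kept the dentate level was 64.1 CPM and the difference 4.50. Ranges of CA1 and dentate gyrus failed to overlap for 50% of genes, but only 0.729% of genes had a ratio of means as large as that of Chrm3. CA2/CA3 was 36.7-fold over the dentate gyrus. Chrm1, coupled to the same G protein, had no such contrast between CA1 and the dentate gyrus.

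**Figure D1:**
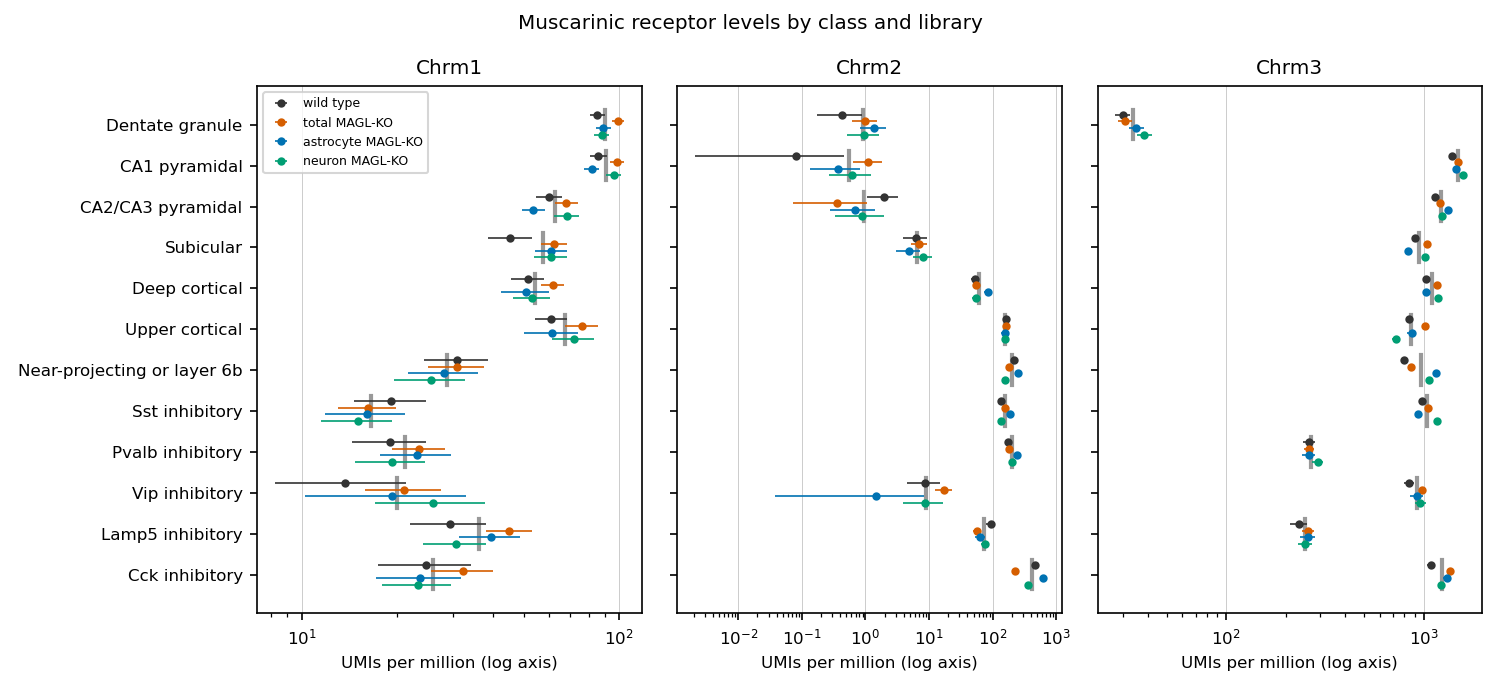
Levels of Chrm1, Chrm2 and Chrm3 (CPM, log axis) in the 12 named classes with at least 100 nuclei in each library. Points are libraries with exact 95% Poisson intervals, and grey bars are the means of the 4 libraries. Chrm1 is flat between CA1 and dentate granule-like nuclei, Chrm3 falls from a mean of 1487 CPM in CA1 to 33.6 CPM in the dentate gyrus, and Chrm2 has its highest mean in the Cck class (415 CPM), where 119 of 903 nuclei hold 92.6% of its UMIs.

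The contrast also held for the share of nuclei with a Chrm3 UMI at equal depth. Thinned to 2000 UMIs, 78.8%, 78.9%, 78.3% and 81.6% of CA1-like nuclei held Chrm3 against 3.51%, 3.92%, 4.24% and 4.75% of dentate granule-like nuclei. Unthinned shares were 91.5%, 87.8%, 88.8% and 90.6% in CA1 and 8.63%, 7.13%, 9.56% and 10.6% in the dentate gyrus. Oligodendrocyte-like nuclei held Chrm3 in 0 of 194 thinned nuclei of the wild type library, which allows up to 1.55%, and in 11 of 200 (5.5%) of the total-labelled library. The thinned dentate share was above the oligodendrocyte share in the wild type library but not in the total-labelled one. These oligodendrocyte shares rest on the deeper nuclei only, 194 of 365 in the wild type and 200 of 1376 in the total-labelled library. How much of the dentate level is stray RNA was not tested. A large part of the dentate UMIs sat in few nuclei. Dentate granule-like nuclei with at least 5 Chrm3 UMIs made up 1.52%, 0.579%, 1.47% and 1.75% of the class and held 51.1%, 28.9%, 46.7% and 53.0% of its Chrm3 UMIs, whereas 79.6%, 68.1%, 75.04% and 80.1% of CA1-like nuclei reached 5 UMIs.

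Chrm3 differed less between the lineages than Chrm1. Excitatory nuclei held 778, 860.2, 936 and 925 CPM (875 ± 73) and inhibitory nuclei 655, 749.8, 689 and 788 CPM (721 ± 60). The ranges overlapped, although the excitatory value was the higher in each of the 4 libraries. Among inhibitory classes the Cck class was highest, at 1094, 1356, 1308 and 1228 CPM (1247 ± 114), followed by the Sst class at 1035 and the Vip class at 928 CPM. The Pvalb class at 270 ± 14 and the Lamp5 class at 251 ± 13 CPM were low. Cortex-like classes lay between, with 1102 CPM in the deep, 973 in the near-projecting or layer 6b, 951 in the subicular and 863 in the upper cortical class. In the order of the 15 classes, 10 of 14 neighbours overlapped. The steps that did not were CA1 over Cck (50.3% of genes did not overlap there), upper cortical over endothelial or mural (32.4%), Pvalb over Lamp5 (34.7%) and astrocyte over dentate granule (33.3%).

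The non-neuronal classes carry a limit on Chrm3. Astrocyte-like nuclei stood at 92.8, 53.6, 265 and 224 CPM (13 to 43 UMIs per library), endothelial or mural-like nuclei at 322 ± 257 CPM, microglia-like nuclei at 430 CPM in 2 libraries and oligodendrocyte-like nuclei at 3.98, 24.1, 21.3 and 49.0 CPM. The summed transcripts of Slc17a7 and Slc17a6, the vesicular glutamate transporters that mark excitatory neurons, were present in the same clusters at 0.337, 0.878, 0.956 and 0.0565 UMIs per 10000 in the same order of classes, against 2.89 in the largest CA1 cluster. The part of stray neuronal RNA in the Chrm3 of these classes was not tested.

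Chrm3 also varied inside several classes, between clusters formed without it. The CA1 class held a cluster led by Spink8 (4777 nuclei) and one led by Dcn, which is also on the subicular marker list, Tnni3k and Pde11a (1507 nuclei). Fibcd1, a CA1 marker, was in 39.9% and 43.5% of their nuclei, Spink8 in 46.4% and 31.4%, and Wfs1 in 34.2% and 8.16%. Of the 9 CA1 markers, 8 marked the first cluster and 6 the second, where the name is less secure. Chrm3 stood at 1839 ± 108 CPM in the first (1688 to 1928) and 486 ± 34 CPM in the second (440 to 520), a 3.78-fold difference with no overlap (29.1% of genes). Chrm1 differed little between them, at 94.6 and 78.7 CPM with overlapping ranges. The first cluster made up 77.8%, 74.87%, 74.99% and 78.02% of the class, so the mixture was alike in the 4 libraries.

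The subicular class split the other way round in size. Its larger cluster, led by Dlk1, Fezf2 and Dcn (1309 nuclei), held Chrm3 at 623 CPM, and the smaller, led by Fn1 and Nts (709 nuclei), held 1594 CPM, 2.56-fold more and without overlap (22.8% of genes). Only Fn1 of the subicular markers marked both of these clusters, in 12.2% and 97.3% of nuclei. At resolution 2 a cluster led by Dcn and Dlk1 stayed unnamed, with CA1 as its nearest class, so they may not be 1 cell type. Of the 2 CA2/CA3 clusters the larger (2145 nuclei) was 1.57-fold above the smaller (381 nuclei), at 1303 and 832 CPM, again without overlap (33.7%). In the dentate gyrus the larger cluster (8301 nuclei, led by Dsp, C1ql2 and Glis3) held Chrm3 at 28.1 ± 6.6 CPM and the smaller (1457 nuclei, led by Trhr and Slc38a11) at 53.2 ± 15.3 CPM. Chrm1 went the opposite way there, at 94.2 and 76.2 CPM, and 15.3% of genes had ranges that did not overlap between these clusters.

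**Figure D2:**
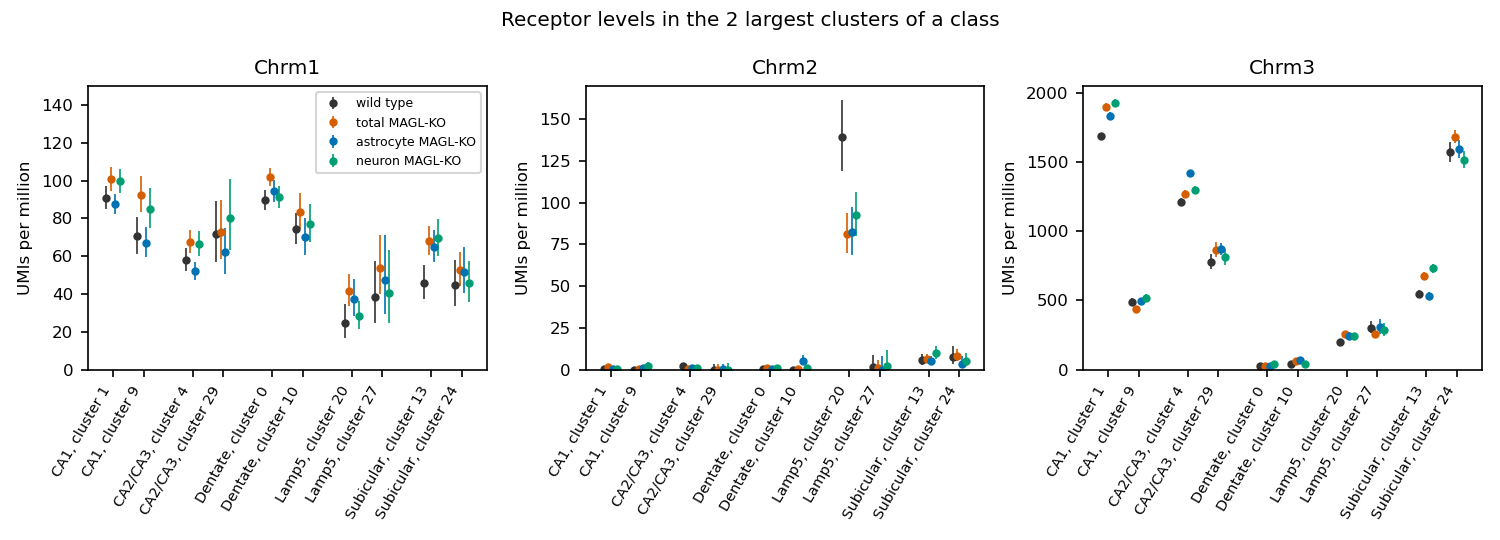
Chrm1, Chrm2 and Chrm3 (CPM) in the 2 largest clusters of each class that has more than 1; points are libraries. Chrm3 separates the CA1 clusters (means 1839 and 486 CPM) and the subicular clusters (623 and 1594 CPM), while Chrm1 overlaps between the CA1 clusters.

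Chrm5, the third Gq-coupled member and a scarce receptor best known from midbrain dopamine neurons, was close to the limit of detection everywhere. It gave 25, 33, 24 and 19 UMIs in the 4 libraries. Most of those in named classes came from CA1-like nuclei, with 40 UMIs in 6284 nuclei (0.713 ± 0.288 CPM, range 0.388 to 0.984), and the highest mean was 1.61 ± 1.61 CPM in the Vip class, on 9 UMIs. Dentate granule-like nuclei held 0 UMIs in 10163 nuclei, which allows up to 0.152%, 0.0694%, 0.143% and 0.170% of nuclei with a UMI in the 4 libraries, as 3 divided by the nuclei of each. CA2/CA3-like nuclei held 0 in 2526. No neighbours in the order of classes were separated for Chrm5 (0 of 14), and with so few UMIs its order is not read further, although all 4 libraries had UMIs in CA1 and none in dentate granule or CA2/CA3 nuclei.

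Chrm2, the M2 receptor, is the Gi/o-coupled member with enough UMIs to compare. Among the named classes it was found mainly in inhibitory and cortex-like nuclei and was nearly missing from hippocampal principal neurons. Inhibitory nuclei held 168, 136, 240 and 179 CPM (181 ± 44) and excitatory nuclei 31.1, 26.5, 21.4 and 22.2 CPM (25.3 ± 4.5). The ranges were well apart and the means differed 7.15-fold, with the 55.8% of non-overlapping genes given above as the background. CA1-like nuclei held 31 UMIs in 6284 nuclei (0.546 CPM), dentate granule-like nuclei 0.929 CPM and CA2/CA3-like nuclei 0.965 CPM, below the 5.96 CPM of oligodendrocyte-like nuclei. That last mean rests on 8 UMIs and ran from 0.502 to 12.3 CPM by library, so it is a loose comparison.

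By class, Chrm2 was highest in the Cck class at 459, 223, 613 and 365 CPM (415 ± 164), with the total-labelled library lowest and the astrocyte-labelled highest. This first place was not kept with nuclei assigned by their own markers, where Cck-like nuclei held 85.8 CPM and Pvalb-like nuclei 222 CPM. Pvalb-like nuclei, which include fast-spiking basket cells, held 177, 183, 242 and 203 CPM (201 ± 29). Sst-like nuclei held 137, 155, 190 and 138 CPM (155 ± 25). The astrocyte-labelled library was the highest in all 3 of these classes. Among excitatory classes, near-projecting or layer 6b-like nuclei held 214, 182, 251 and 157 CPM (201 ± 41) and upper cortical-like nuclei 164, 163, 155 and 154 CPM (159 ± 5). Lamp5-like nuclei held 93.1, 57.6, 63.8 and 75.7 CPM and deep cortical-like nuclei 52.2, 54.9, 84.7 and 53.9 CPM. The means of the Vip class at 8.97 CPM (66 UMIs) and the subicular class at 6.50 CPM (132 UMIs) were low. Both lay inside the wide library range of oligodendrocyte-like nuclei, 0.502 to 12.3 CPM on 8 UMIs. Neighbours in this order overlapped in 12 of 14 steps; Sst stood clear of Lamp5 (28.5% of genes) and deep cortical clear of endothelial or mural (32%).

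At equal depth, 22.3%, 23.4%, 27.0% and 27.2% of Pvalb-like nuclei held a Chrm2 UMI, and 44.5%, 40.0%, 48.4% and 50.9% did unthinned. In oligodendrocyte-like nuclei of the wild type library, 1 of 194 thinned nuclei did. The Lamp5 class was itself a mixture. Its larger cluster, led by Hapln1, Mctp2 and Lhx6 (933 nuclei), held Chrm2 at 98.8 CPM on 676 UMIs, and the smaller, led by Egfr, Ndnf and Npy (409 nuclei), held 3 UMIs in all. The libraries of these clusters did not overlap for Chrm2 or for 22% of genes.

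The Cck level of Chrm2 came from a small group of nuclei. The cluster was split into 13 sub-clusters without using the receptor genes, though 9330158H04Rik, which overlaps the Chrm2 start, was not left out. The 2 sub-clusters with the highest Chrm2 means held 119 of the 903 Cck nuclei (13.2%) and 92.6% of the Chrm2 UMIs of the cluster. They were picked for that level and so are given as a description. Chrm2 stood there at 2399, 2081, 3082 and 3532 CPM (2773 ± 656) and in the other sub-clusters at 77.5, 37.6, 24.5 and 12.5 CPM (38.0 ± 28.2), 73.0-fold apart. Chrm3 ran the opposite way, at 167, 151, 94.1 and 38.6 CPM (113 ± 58) against 1276, 1476, 1597 and 1361 CPM (1428 ± 140), 12.7-fold lower. Chrm3 kept the libraries of the 2 sets of nuclei apart, as did 21% of genes. For Chrm2 the separation follows from how the sub-clusters were picked and is not a result. Chrm1 was alike, at 32.9 and 24.4 CPM on 37 and 191 UMIs.

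The label of the Cck class held less well for these 119 nuclei. All 8 genes of its marker list were lower in them and without overlap, among them Cck at 49.3 against 1004 CPM, Cnr1 (the CB1 cannabinoid receptor) at 389 against 1777 CPM, and Cxcl14 at 0 against 275 CPM. Other genes were far higher, among them Adgrg6 at 496 against 7.05 CPM, Meis2 at 265 against 9.07 CPM and Nxph1 at 2770 against 239 CPM, all of them chosen after their values were seen. Gad1 and Gad2, the enzymes of GABA synthesis, were present in both sets, at 214 and 549 CPM against 272 and 370 CPM. The larger of the 2 sub-clusters (97 nuclei, led by Adgrg6, Unc13c, 9330158H04Rik, Rmst and Ano2) held Chrm2 at 2482 CPM and Chrm3 at 136 CPM. The smaller (22 nuclei, led by Cyp26b1, Agtr1b and Fst) held Chrm2 at 3866 CPM and Chrm3 at 0, and had no nucleus in the total-labelled library.

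**Figure D3:**
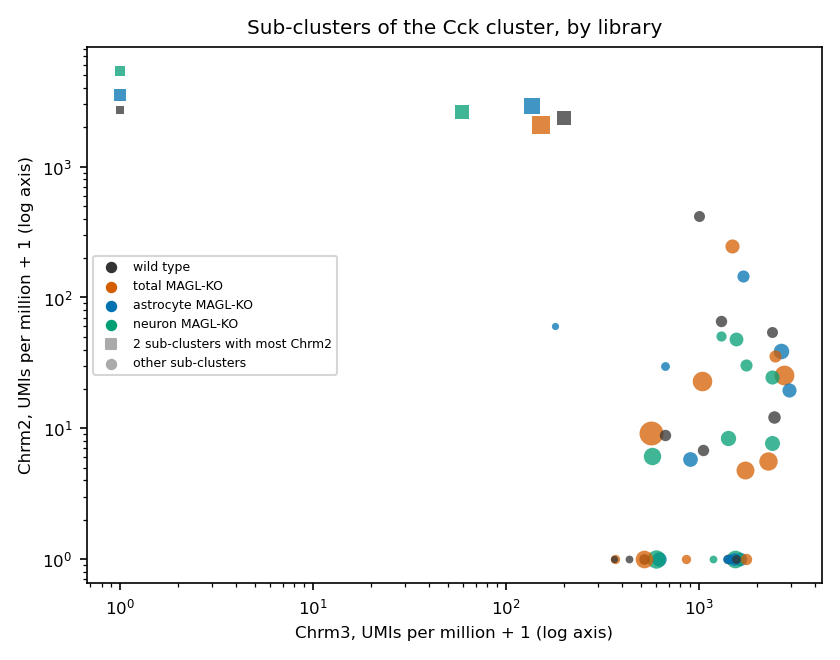
Chrm2 against Chrm3 (CPM + 1, log axes) in the sub-clusters of the Cck cluster, 1 mark per sub-cluster and library, with the area scaled to nuclei. The squares are the 2 sub-clusters with most Chrm2, which average 2773 CPM of Chrm2 and 113 CPM of Chrm3, while the circles average 38.0 and 1428 CPM.

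The 119 nuclei made up 16.1%, 10.7%, 19.5% and 10.1% of the Cck cluster in the 4 libraries, whose class levels of Chrm2 were 459, 223, 613 and 365 CPM. The share of thinned nuclei with both Chrm2 and Chrm3 in this class was 0.42, 0.31, 0.15 and 0.29 of the product of their separate shares. In the Lamp5 class it was 0.14, 0.69 and 0.41 (wild type, total-labelled, neuron-labelled), on 1, 8 and 3 nuclei with both. In the Sst, Pvalb, upper cortical, deep cortical and near-projecting classes the same quotient lay between 0.81 and 1.16. Nuclei of a library are not replicates, so these are descriptions.

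Chrm4, the M4 receptor, which is known for its high level in striatal neurons, could hardly be counted. It gave 29, 41, 26 and 18 UMIs in the 4 libraries. Medium spiny-like nuclei, where it would be looked for, held 7 UMIs in 781 nuclei (0.904 CPM over 2 libraries). Upper cortical-like nuclei held 9 UMIs (0.822 CPM), Cck-like nuclei 7 UMIs (0.803 CPM), CA1-like nuclei 17 UMIs (0.306 CPM) and dentate granule-like nuclei 3 UMIs (0.0485 CPM). No class was separated from its neighbour in the order (0 of 14). Neither Chrm4 nor Chrm5 reached 100 UMIs in any class, and neither enters the comparisons of libraries that follow.

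The design sets each MAGL knockout beside the wild type, and the receptors were compared as the ratio of each knockout library to the wild type library in 12 classes with at least 100 nuclei per library. Chrm1 and Chrm3 could be compared in all 12 and Chrm2 in 8, where it had at least 100 UMIs over the 4 libraries. Few of these 32 ratios reached 1.5-fold. A ratio of summed UMIs does not by itself separate fewer transcripts per nucleus from fewer nuclei that hold the transcript. For Chrm2 in the Cck class, 16.9% of thinned nuclei held a UMI in the wild type and 10.1% in the total-labelled library. The Chrm2-rich sub-clusters made up 16.1% and 10.7% of the Cck nuclei of these libraries, at 2399 and 2081 CPM. All 3 ratios have the same wild type library as their base.

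Of the 32 ratios, 4 were past 1.5-fold in the total-labelled library. Chrm2 was lower in the Cck class (223 against 459 CPM, 568 against 687 UMIs, log2 ratio -1.04, interval -1.20 to -0.88) and in the Lamp5 class (57.6 against 93.1 CPM, -0.69, interval -0.999 to -0.38). These UMIs sat in few nuclei. Cck nuclei with at least 5 Chrm2 UMIs numbered 27 against 19 and held 92.1% against 96.1% of them. In the Lamp5 class 15 against 13 such nuclei held 51.4% against 73.8%. The intervals do not cover differences between nuclei. Chrm1 was higher in the Lamp5 class (45.0 against 29.2 CPM, 0.62, interval 0.16 to 1.10) and in the Vip class (54 against 19 UMIs, 0.63, interval -0.15 to 1.46). Across all genes with at least 100 UMIs, 10.8% were past this fold in the Cck class, 7.81% in the Lamp5 class and 6.1% in the Vip class. The shares in the classes where no receptor was past it were 7.62% in CA1, 7.22% in CA2/CA3, 7.43% in dentate granule, 7.85% in subicular, 5.52% in deep cortical, 7.08% in upper cortical, 6.89% in near-projecting, 7.49% in Pvalb and 7.78% in Sst nuclei.

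Without the 2 Chrm2-rich sub-clusters the Chrm2 level of the Cck class was 37.6 against 77.5 CPM in the total-labelled library, a log2 ratio of -1.04 as in the whole cluster. Those levels rest on 87 and 97 UMIs, of which 63 and 80 lay in 1 sub-cluster of 20 and 11 nuclei; Slc17a7, a gene of excitatory neurons, was in 52.2% of the nuclei of that sub-cluster over all libraries. It held 0 UMIs in the astrocyte-labelled library and 8 in the one labelled for neurons. Without the Chrm2-rich sub-clusters the log2 ratios of these libraries were -1.66 (interval -2.26 to -1.10) and -2.63 (interval -3.26 to -2.04). They rest on 36 and 32 UMIs. The astrocyte-labelled library, above the wild type in the whole cluster, was thus below it. The Chrm2 ratio of the Lamp5 class had the opposite sign when only male nuclei were used (0.49) or when each nucleus was assigned by its own markers (0.02), so its direction depends on which nuclei are counted. The Cck ratio fell short of 1.5-fold with doublets kept (-0.57) or thinned nuclei (-0.58), and the Chrm1 ratio of the Vip class turned to -0.07 with nuclei assigned by their own markers.

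In the astrocyte-labelled library 1 of 32 ratios was past 1.5-fold. Chrm2 in deep cortical-like nuclei stood at 84.7 against 52.2 CPM (log2 ratio 0.70, interval 0.44 to 0.95), in a class where 8.3% of all genes were past the fold. It was just short of the fold with nuclei assigned by their own markers (0.58) and short of it in male nuclei alone (0.46). Elsewhere no receptor passed it, against a background of 4.99% of genes in CA1, 4.66% in CA2/CA3, 7.12% in dentate granule, 7.96% in subicular, 10.6% in upper cortical, 7.58% in near-projecting, 9.7% in Cck, 9.17% in Lamp5, 8.43% in Pvalb, 9.19% in Sst and 12.4% in Vip nuclei.

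In the neuron-labelled library 1 of 32 was past it, Chrm1 in the Vip class, on 27 against 19 UMIs (25.9 against 13.6 CPM, log2 ratio 0.92, interval 0.02 to 1.85), where 10.9% of all genes were. The background in the other classes was 6.81% in CA1, 7.13% in CA2/CA3, 6.47% in dentate granule, 8.04% in subicular, 7.11% in deep cortical, 8.37% in upper cortical, 8.62% in near-projecting, 10.1% in Cck, 9.91% in Lamp5, 7.92% in Pvalb and 8.41% in Sst nuclei. The count of 1 of 32 in these last 2 libraries is below the share of genes in general as reported, but it became 4 and 4 with nuclei assigned by their own markers and 4 and 3 in male nuclei alone, for which no share of all genes was computed. The 4 of 32 in the total-labelled library is a larger share than the 5.52% to 10.8% of its classes, but at Leiden resolution 2 it became 1 of 32, with Chrm1 and Chrm2 in Lamp5 (0.54 and -0.54) and Chrm1 in Vip (0.55) short of the fold. These are pairs that share genes and nuclei of 1 library.

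**Figure D4:**
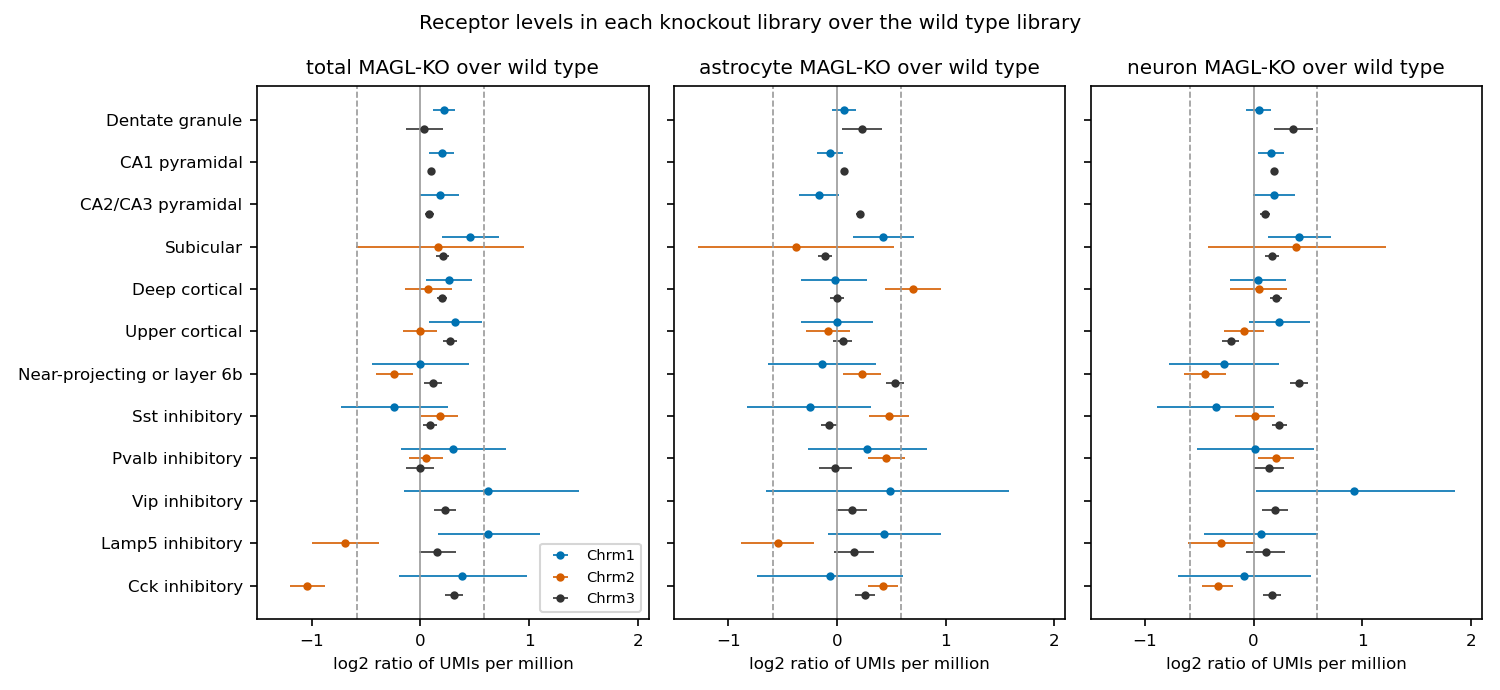
Log2 ratio of each knockout library to the wild type library for Chrm1, Chrm2 and Chrm3 by class, with exact 95% intervals for counting error and dashed lines at 1.5-fold; Chrm2 is not drawn where it had under 100 UMIs. Most points lie inside the lines, and the lowest is Chrm2 in the Cck class of the total-labelled library at -1.04.

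Below the fold, Chrm3 was more often higher than lower in the knockout libraries. Against the wild type, the total-labelled library was higher in 11 of 12 classes (median log2 ratio 0.14, range -0.0031 to 0.31). The astrocyte-labelled library was higher in 9 of 12 (0.10, -0.11 to 0.53), and the neuron-labelled library in 11 of 12 (0.18, -0.21 to 0.41). In CA1 its log2 ratios were 0.10, 0.07 and 0.19, where the 90th percentile of all genes was 0.26, 0.27 and 0.29. In the dentate gyrus they were 0.04, 0.23 and 0.36 (90th percentile 0.23, 0.26 and 0.28). In near-projecting nuclei they were 0.12, 0.53 and 0.41 (90th percentile 0.28, 0.32 and 0.34). Medians of all genes in these classes lay between -0.051 and -0.017. The share of all genes that were higher in as many classes is not given. Chrm1 was higher in 10, 6 and 9 of 12 classes, with medians of 0.28, -0.01 and 0.05. Its subicular log2 ratios were 0.46, 0.43 and 0.42, with the wild type library the lowest. Chrm2 was higher in 4, 5 and 4 of 8 classes, with medians of 0.02, 0.32 and -0.04. By lineage no receptor passed 1.5-fold in any library. The share of genes that did was 8.03%, 6.77% and 6.19% in excitatory and 7.64%, 6.97% and 7.11% in inhibitory nuclei. Since 1 library is the reference for all ratios, the repeated sign of Chrm3 is not independent evidence between libraries.

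The rest of the cholinergic pathway was read from lists in dentate granule, CA1, CA2/CA3 and inhibitory nuclei. The clearest member was Bche, butyrylcholinesterase, another enzyme that splits acetylcholine. It stood at 12.2, 4.84, 9.03 and 9.25 CPM in dentate granule-like nuclei, at 12.9, 6.10, 9.27 and 11.6 CPM in CA1-like nuclei, at 10.5, 2.98, 13.1 and 8.73 CPM in CA2/CA3-like nuclei and at 6.89, 3.02, 4.26 and 4.12 CPM in inhibitory nuclei. The total-labelled library was the lowest in all 4, with log2 ratios of -1.33 (interval -1.69 to -0.97), -1.09, -1.81 and -1.19, each past 1.5-fold. Of all genes in these groups, 774 of 13208, 688 of 12806, 652 of 11677 and 848 of 13469 were past it downward. The alternative settings, male nuclei among them, were run on the receptors and not on Bche. The highest class of Bche was the oligodendrocyte class at 56.7 CPM, and the part of stray RNA in its neuronal levels was not tested. Of the list of synthesis, transport and breakdown, 3 of 8 genes had enough UMIs in each excitatory class and 4 of 8 in inhibitory nuclei.

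Other members of that list moved in single libraries. Ache, the main acetylcholinesterase, was past the fold in dentate granule-like nuclei of the astrocyte-labelled library, at 3.46 against 2.18 CPM (log2 ratio 0.67). Of all genes there, 294 were past it upward and 646 downward of 13208. Slc5a7, the choline transporter of cholinergic terminals, was past it in inhibitory nuclei of the neuron-labelled library, at 1.59 against 3.31 CPM (-1.06). Vip-like nuclei, its highest class, were 151 of 1426 inhibitory nuclei there and 199 of 1117 in the wild type library, and the part of this mixture in the ratio was not tested. Bche was also past the fold in inhibitory nuclei of the astrocyte-labelled and neuron-labelled libraries (-0.69 and -0.74). Of all 13469 genes in inhibitory nuclei, 181 were past it upward and 758 downward in the astrocyte-labelled library. In the neuron-labelled library 193 and 765 were. Chat, the enzyme that makes acetylcholine, was highest in Vip-like nuclei at 6.76 CPM, as was Slc5a7 at 26.8 CPM. Of all genes in dentate granule-like nuclei of the total-labelled library, 208 were past the fold upward and 774 downward of 13208, with a median log2 ratio of -0.05, against 0 and 1 of 3 on this list with a median of -0.41.

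Nicotinic receptor subunits, the ion channel receptors for acetylcholine, had 4 of 16 genes measured in CA1 and in inhibitory nuclei. Chrna7 had its highest levels in the Vip class at 229 CPM and in the Lamp5 class at 222 CPM. Of the genes measured in these 2 groups, Chrna4 in CA1 of the astrocyte-labelled library (1.11 against 2.21 CPM, -0.99) and Chrnb1 in inhibitory nuclei of the total-labelled library (1.51 against 2.76 CPM, -0.87) were past the fold, and no other was. Of all genes, 269 were past it upward and 370 downward of 12806 in the first of these comparisons, and 181 and 848 of 13469 in the second. Slc18a3, Chrna6, Chrnb4, Chrnd and Chrng were not analysed here.

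Of the Gq route, 1 of 11 genes measured in CA1 was past the fold in the astrocyte-labelled library (Plcb4, lower). Of the Gi/o route, 1 of 13 was in CA1, Adcy8 at 126 against 207 CPM (-0.71), and 2 of 13 were in CA2/CA3, Adcy8 lower at 9.29 against 23.0 CPM (-1.31) and Adcy5 higher (0.63), all in that same library. Rgs9 (-0.84) was the single one of 11 receptor regulators past it, in inhibitory nuclei of the astrocyte-labelled library. Of all genes in that library, 269 were past the fold upward and 370 downward of 12806 in CA1, 196 and 348 of 11677 in CA2/CA3 and 181 and 758 of 13469 in inhibitory nuclei, with median log2 ratios of -0.03, -0.04 and -0.06.

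For each receptor the genes with the most similar profile over the 21 classes were taken from 12783 genes by Pearson's r of log2 levels, which share libraries and depth and carry no p. For Chrm1 they included Neurl1a (0.93), Mmp17 (0.91), Asphd2 (0.90) and Dab1 (0.90). For Chrm2 they included Gm13629 (0.84), Nap1l5 (0.79), Cntn6 (0.79) and Ank1 (0.79), a looser set. For Chrm3 they were A230006K03Rik (0.92), Slc6a7 (0.92), Gm9866 (0.92), St8sia5 (0.92) and Runx1t1 (0.91). Among the receptors themselves the values were 0.40 for Chrm1 and Chrm3, 0.46 for Chrm2 and Chrm3 and -0.14 for Chrm1 and Chrm2. Chrm4 and Chrm5, with 76 and 75 UMIs in the named classes, were below the 500 UMIs asked for.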

How the data were processed

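UMI counts per gene and nucleus were deposited by the authors as 1 filtered matrix per library, and Cell Ranger ARC 2.0.0 and mm10 are named per the submitters' processing notes; the annotation and strand setting in counting were not stated in the sources used here. Libraries were joined on 20211 of 22989 genes, which keep at least 99.98% of UMIs. Nuclei with at least 500 genes and at most 5% mitochondrial UMIs were kept, Scrublet doublets were removed per library, and 2000 variable genes without the receptors, 30 components and 15 neighbours gave Leiden clusters at resolution 1 (scanpy 1.11.5, leidenalg 0.10.2, scipy 1.17.1). A cluster was named where at least 3 markers, and at least 50% of a list, were each in at least 10% of its nuclei and 2-fold over the rest. It stayed unnamed on a tie, or where its leading genes held more markers of another type. The same held where at least 75% of another list was met, or where it was shallow without own markers among its leading genes. This naming rule was revised after the clusters were seen. UMIs were summed per library and class, with exact Poisson, conditional binomial or Clopper-Pearson 95% intervals, which were tested on simulated counts. A class mean uses libraries with at least 20 nuclei, and a ratio needs 100 nuclei per library and 100 UMIs. No test was made, since each genotype has 1 library. The receptors and gene lists were chosen with earlier results of these data known. Genes were named by rule: the 5 receptors, the 5 most similar profiles of each (at least 500 UMIs and 10 CPM in a class), the acetylcholine and nicotinic lists, and from other lists the 2 highest and 2 lowest ratios past 1.5-fold. Alternatives were doublets kept, nuclei gated on their own markers, resolution 2, means over nuclei, thinning to 2000 or 1000 UMIs, at least 1000 genes, male nuclei only, median ratio scaling, a fold of 2, a minimum of 20 UMIs and leaving out each library. The split of the Cck cluster and of classes by cluster was added after the class levels were seen. A few genes that these rules name are not reported here.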

Additional observations from a re-analysis of the deposited data

Results flagged for a closer look

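Chrm2 in the astrocyte-labelled library moved in opposite directions in 2 classes: its log2 ratio to the wild type library was 0.70 in deep cortical-like nuclei and -0.54 in Lamp5 inhibitory-like nuclei. There is 1 library on each side of each ratio, so the difference was not tested. The Lamp5 value turned to 0.35 with nuclei gated on their own markers and to 0.85 with male nuclei only, but was -1.43 thinned and -0.92 at resolution 2, whereas the deep cortical value stayed between 0.46 and 0.72 under the 6 alternatives run on it.

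Some of the highest receptor levels lie in unnamed clusters, which no comparison between classes uses. Chrm2 averaged 1048 CPM in cluster 33 (led by Ebf2, Samd3 and Ebf3) over the 2 libraries with at least 20 of its nuclei, above the mean of any named class. Chrm3 averaged 2807 CPM in cluster 25 (698 nuclei, led by 9330185C12Rik, Gm6602 and Cfap52) and 2121 CPM in cluster 40 (led by Lipm, Nts and Npsr1, 3 libraries), both above CA1-like nuclei.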

How the results depend on the processing

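Knockout and wild type libraries could not be paired, because each genotype has 1 library and the labels give no shared replicate number. Classes come from the same 4 libraries and can be paired by library. They were compared with the values of each library side by side, and no paired test was made. Leaving out each library in turn was run on class means and class pairs. The ranges of means were 87.9 to 93.4 CPM for Chrm1 in CA1, 87.5 to 92.1 in dentate granule, 349 to 479 for Chrm2 in Cck (479 without the total-labelled library), 1453 to 1517 for Chrm3 in CA1 and 31.9 to 34.8 in dentate granule. Gating each nucleus on its own markers gave 79.3 CPM for Chrm1 in CA1, 85.8 for Chrm2 in Cck (415 as reported), 1194 for Chrm3 in CA1 and 28.5 for Chrm3 in dentate granule. It also gave log2 differences of -0.18 for Chrm1 in CA1 over dentate granule and, for excitatory over inhibitory nuclei, -2.09 for Chrm2 (-2.84 as reported) and 0.15 for Chrm3 (0.28 as reported). Keeping doublets gave 64.1 CPM for Chrm3 in dentate granule, log2 4.50 for CA1 over it, and 1.56 for Chrm1 in excitatory over inhibitory nuclei (1.71 as reported). A mean over nuclei gave 28.5 CPM for Chrm3 in dentate granule. Thinning gave log2 5.71 for Chrm3 in CA1 over dentate granule and 0.16 in excitatory over inhibitory nuclei. Leaving out the 2 Cck sub-clusters, an alternative chosen after seeing the data, gave 38.0 CPM for Chrm2.

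For the total-labelled library the sign turned for Chrm2 in Lamp5 (0.022 gated, 0.49 in male nuclei) and for Chrm1 in Vip (-0.072 gated). Chrm2 in Cck kept its sign but fell short of 1.5-fold with doublets kept (-0.57) or thinned (-0.58), and was -1.66 gated and -1.58 in male nuclei. The 4 ratios past 1.5-fold there became 1 at a fold of 2, 1 at resolution 2 and 9 with at least 20 UMIs. The 1 in the astrocyte-labelled library became 0 at a fold of 2, 2 with doublets, 4 gated, 3 at resolution 2, 4 in male nuclei, 4 thinned and 5 with at least 20 UMIs. The 1 in the neuron-labelled library became 0, 4 gated, 2 at resolution 2, 3 in male nuclei and 5 with at least 20 UMIs. The cause of these changes was not tested. Over all alternatives other than leaving out a library, 714 of 1143 values stayed within their spread, 426 moved beyond it, some of them with a change of sign, and 3, from 2 ratios past 1.5-fold as reported, turned sign. Depth limits Chrm4 and Chrm5, and 1 library per genotype limits every ratio.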

Other observations

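Outside the named classes, cluster 2 (3273 nuclei, led by Atp10b, Dsc3 and Npsr1) held Chrm2 at 232 CPM and Chrm3 at 98.3 CPM, and cluster 11 (1427 nuclei) held Chrm2 at 289 CPM and Chrm3 at 487 CPM. Cluster 33 held little Chrm3 (51.3 CPM) beside its Chrm2. Cluster 25 held Chrm3 at 2385, 2810, 3200 and 2833 CPM in the wild type library and the total-labelled, the astrocyte-labelled and the neuron-labelled library, with the wild type lowest, and Chrm2 at 82.5 CPM. Cluster 40 held no Chrm2.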
